A study of Zea mays with 6 samples.

Results

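Alcohol dehydrogenase and pyruvate decarboxylase form the ethanol branch of plant metabolism, and 3 of their genes, adh1 (GRMZM2G442658), adh2 (GRMZM2G098346) and pdc3 (GRMZM2G087186), are described here out of the 39283 genes in the deposited expression table. They were chosen by gene identifier for their function. The RNA came from coleoptile tips, 3 to 4 mm long, of maize seedlings grown at 28°C in a growth chamber. Seedlings were sampled 3 days after they germinated. The coleoptile is a hollow organ that shields the shoot of a grass seedling as it grows through the soil. Both groups were of the W22 inbred background, with 3 wild-type samples and 3 samples labelled fdl1. The mutant allele is fdl1-Mu, a transposon insertion in FDL1 (also ZmMYB94), a MYB transcription factor of cuticle formation, and the methods describe the plants collected as homozygous and heterozygous for it. The fdl1 tips were of normal appearance per the labels, and each sample pooled the tips of several seedlings. The mutant is not without a phenotype, since the paper reports fused seedling leaves and increased water loss in homozygous fdl1-Mu plants.

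For each gene and group, the table gives 1 FPKM value, a fragment number scaled to transcript length and library size, which Cuffdiff pooled over the replicates. The values of single samples were not analysed here. Therefore no spread stands beside any level below, no difference was tested, and none can be said to exceed the error between replicates. FDL1 itself had 4.58 FPKM in the wild-type group and 12.7 in the group labelled fdl1. The targeted gene was thus higher, not lower, in the libraries labelled fdl1, and since the value covers the whole gene it does not tell whether those transcripts carried the insertion. All directions below rest on these labels. Across the 21364 genes at 1 FPKM or more in at least one group, the median log2 ratio of the fdl1 to the wild-type value was 0.02, and the ratios ran from -0.21 at percentile 25 to 0.28 at percentile 75.

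In ethanol fermentation, pyruvate decarboxylase splits pyruvate into acetaldehyde and carbon dioxide, and alcohol dehydrogenase reduces acetaldehyde to ethanol. The second step returns NADH to NAD+, which allows glycolysis to go on where oxygen limits respiration. Maize adh1 and adh2 encode subunits of the alcohol dehydrogenase dimer. Both are classical anaerobic genes, induced in flooded seedling roots, and adh1 is also active in seeds and pollen. Sucrose synthase, aldolase, enolase and cytosolic glyceraldehyde-3-phosphate dehydrogenase are further enzymes of the same anaerobic response.

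In fold terms, adh2 lay farther below adh1 and pdc3 than any of these genes differed between the groups. The levels of adh1 and pdc3 were closer to each other, 1.82-fold apart in wild type and 1.40-fold in fdl1. In the wild-type group, adh1 was the most abundant with 197 FPKM, followed by pdc3 with 109 and adh2 with 13.3. In the group labelled fdl1, the order was the same, with 165 FPKM for adh1, 118 for pdc3 and 21.7 for adh2. FPKM is scaled by length, so that these levels can be set side by side across genes. Transcripts of adh1 and pdc3 were thus well above the median gene, which had 10.9 FPKM in the wild-type and 11.3 in the fdl1 group, whereas adh2 lay close above it.

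**Figure D1:**
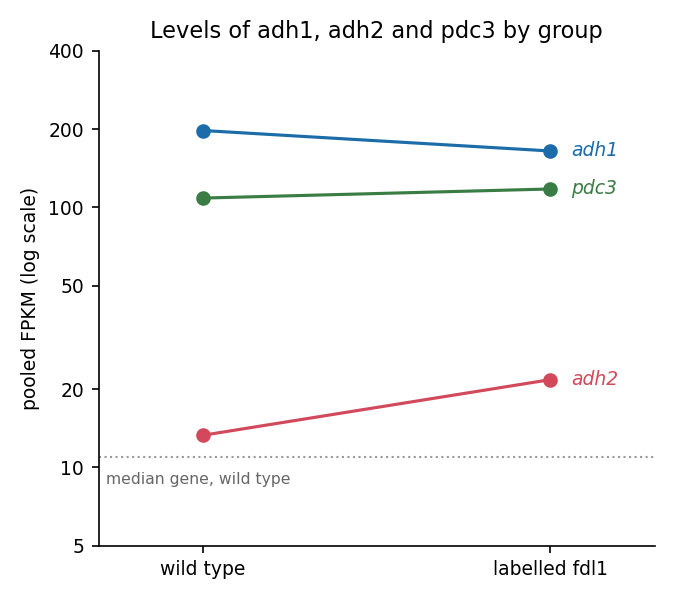
Pooled FPKM (log scale) of adh1, adh2 and pdc3 in the wild-type group and in the group labelled fdl1, 1 value per gene and group without error bars. A dotted line marks the median gene of the wild-type group at 10.9 FPKM, and adh2 is the only one of the 3 genes whose line climbs clearly, from 13.3 to 21.7.

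Ranked over all 39283 genes, adh1 was number 522 in the wild-type and 684 in the fdl1 group, pdc3 was number 1009 and 1014, and adh2 moved from 9416 to 6433. Only 2.44% of the genes placed had a higher wild-type level than adh1, and 4.72% a higher level than pdc3. For adh2, this share was 44.1% in the wild-type group and 30.1% in the fdl1 group. In both groups, adh1 and pdc3 were therefore among the upper few percent of transcripts, while adh2 was not.

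Of the 3 genes, adh2 had the largest ratio. Its level of 21.7 FPKM in the fdl1 group against 13.3 in wild type was 1.64-fold higher, which is 0.71 as a log2 ratio, and 1871 of the 21364 genes had a higher ratio. This put adh2 at percentile 91.2 of all ratios. It was the only one of the 3 that was higher by at least 1.5-fold, which 11.7% of all genes were, and none of the 3 was lower by that much, as 5.33% were. Past 1.5-fold in either direction were 17.0% of all genes, so that 1 gene of 3 does not set this small group apart. None reached 2-fold, a size that 4.67% of the genes showed upwards, 1.31% downwards and 5.97% either way. By sign alone, adh2 and pdc3 were with the 52.3% of genes above 0 and adh1 with the 47.7% below.

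The wild-type level of adh1 was 1.20-fold that of the fdl1 group, 197 against 165 FPKM, a log2 ratio of -0.26 at percentile 20.3. A change at least as large in size, in either direction, was found in 46.9% of the genes. In absolute terms, however, the difference of -32.7 FPKM for adh1 was larger than that of 8.46 FPKM for adh2, since adh1 was so much more abundant. For pdc3, 118 FPKM in the fdl1 group against 109 in wild type gave a log2 ratio of 0.12, at percentile 60.4, and 74.1% of the genes changed by at least as much. The level of the decarboxylase gene was thus the closest of the 3 to being equal in both groups.

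**Figure D2:**
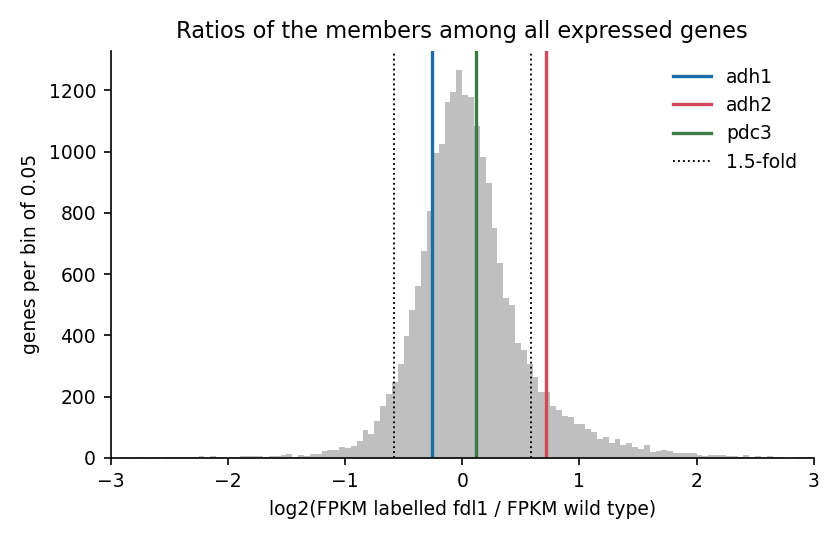
Histogram of the log2 ratio of fdl1 to wild-type FPKM over the 21364 genes placed (number of genes per bin of 0.05, ratios beyond 3 in size not shown), with coloured lines at adh1, adh2 and pdc3 and dotted lines at 1.5-fold. The line of adh2, at 0.71, lies outside the dotted lines, and those of adh1, at -0.26, and pdc3, at 0.12, lie within the bulk of the genes.

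Ratios scatter more among weakly expressed genes, so that each gene was also placed among genes whose mean FPKM lay within 2-fold of its own. Among 8259 genes of like level, adh2 was at percentile 95.6, and 5.59% of them changed at least as much in either direction. Among 1049 such genes, adh1 was at percentile 15.6, and pdc3 was at percentile 61.9 among 1789. The position of adh2 was therefore farther out among genes of its own level than among all genes.

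Because the alcohol dehydrogenase genes went opposite ways, their balance differed between the groups. In wild type, adh1 had 14.9 times the FPKM of adh2, and in the group labelled fdl1 7.57 times. As a share of the summed FPKM of both genes, adh2 made up 6.31% in wild type and 11.7% in fdl1. The sum itself was 211 FPKM in wild type and 186 in fdl1, since adh2 was higher by fewer FPKM than adh1 was lower. Per unit of pdc3, the summed alcohol dehydrogenase transcripts were 1.94 in wild type and 1.58 in fdl1. No replicate values stand behind these quotients, and in whole tips fewer cells that express a gene and less of its RNA per cell cannot be told apart.

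By the coordinates of the deposited table in B73v3, adh1 lies on chromosome 1 (274050254 to 274054148), pdc3 on the same chromosome (45517324 to 45520500) and adh2 on chromosome 4 (13409584 to 13412986). None of these loci overlaps another locus of the table, and none is on chromosome 7, which carries FDL1. The exon structure was not analysed here. The locus that precedes adh1, GRMZM2G361662, to which RefSeq gives the synonym adh1C, had 17.8 FPKM in wild type and 15.7 in fdl1, a log2 ratio of -0.18. The locus that follows it, GRMZM2G133652, had a log2 ratio of 0.21, from 24.7 to 28.6 FPKM. Around adh2, one neighbour was listed at 0 in both groups, and the other, GRMZM6G616789, had 20.7 FPKM in wild type and 19.4 in fdl1. The ratio of this neighbour was thus on the other side of 0 from that of adh2.

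Other genes of the ethanol branch were sought by symbol. Of 8 fermentation symbols on the list, 4 had a gene in it, the 3 described and pdc2 (GRMZM2G038821), a second pyruvate decarboxylase gene. The level of pdc2 was low, 2.45 FPKM in wild type and 4.23 in the fdl1 group, a log2 ratio of 0.79 at percentile 92.6 of all genes and 89.6 of genes of like level. Of the decarboxylase genes matched, the abundant pdc3 thus differed little between the groups, and the scarce pdc2 had the higher ratio, as adh2 had beside the more abundant adh1. The locus with the synonym adh1C, at a level near that of adh2, had a log2 ratio of -0.18. Only this synonym ties it to alcohol dehydrogenase, and whether it encodes such an enzyme was not checked. How reads were divided between paralogs such as adh1 and adh2 cannot be told from the table.

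A like split was seen for sucrose synthase, the enzyme that cleaves sucrose at the entry of the pathway. Its abundant genes were lower in the group labelled fdl1, sh1 (GRMZM2G089713) with 335 FPKM in wild type and 264 in fdl1, and sus1 (GRMZM2G152908) with 633 and 520, log2 ratios of -0.34 and -0.28. These ratios were close to that of adh1. The scarce gene sus2 (GRMZM2G318780) had 2.43 FPKM in wild type and 5.14 in fdl1, a log2 ratio of 1.08. Sets of more and less abundant paralogs were put together after their values were seen, in 3 enzymes only, and are a description. Other enzymes given below did not all share this order. The more abundant enolase gene eno1 had the higher log2 ratio, 0.26 against 0.05 for eno2. Likewise gpc4, scarcer than gpc2, had the lower one, -0.14 against 0.44. Of the aldehyde dehydrogenase genes, the scarcer rf2c and rf2d had higher ratios than rf2, but rf2b did not.

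**Figure D3:**
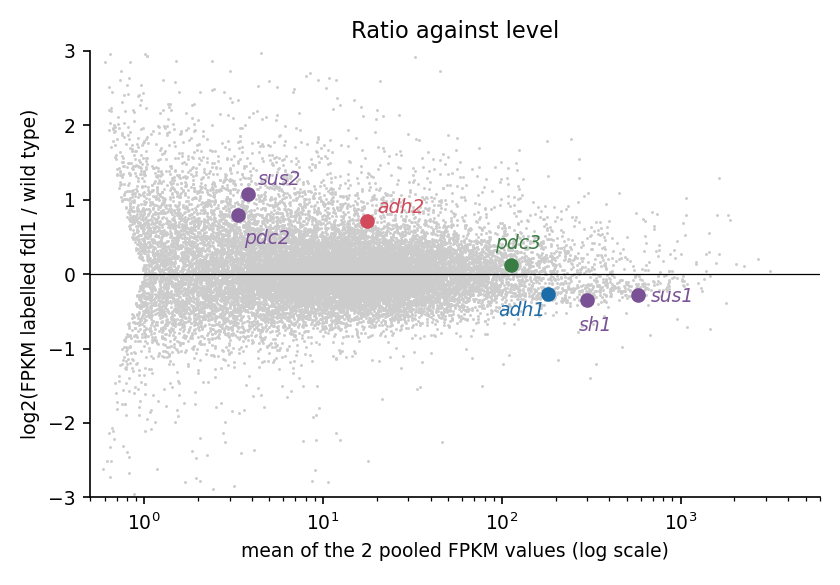
Log2 ratio of fdl1 to wild-type FPKM against the mean of both pooled values (log scale), with each gene placed as a grey point, adh1, adh2 and pdc3 in their own colours, and pdc2, sh1, sus1 and sus2 in purple (ratios beyond 3 in size not shown). The less abundant genes of each set, pdc2, sus2 and adh2, sit above 0, at 0.79, 1.08 and 0.71, and the more abundant adh1, sh1 and sus1 below 0, at -0.26, -0.34 and -0.28, with pdc3 at 0.12.

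Glycolysis supplies the pyruvate on which pdc3 acts. Of 31 symbols listed for it, 11 were matched to 12 genes, all at 1 FPKM or more, and 10 of these had a ratio above 0, as 52.3% of all genes did. Their median log2 ratio was 0.27 against 0.02 over all genes, and none passed 1.5-fold in either direction. Cytosolic glyceraldehyde-3-phosphate dehydrogenase gene gpc2 (GRMZM2G180625) had the highest ratio of the list, with 809 FPKM in wild type and 1099 in fdl1, a log2 ratio of 0.44. Its relative gpc4 (GRMZM2G176307) had 355 and 322, a log2 ratio of -0.14. Aldolase gene ald1 (GRMZM2G057823) had 655 FPKM in wild type and 856 in fdl1. Enolase genes eno1 (GRMZM2G064302) and eno2 (GRMZM2G048371) had log2 ratios of 0.26 and 0.05. The abundant alcohol dehydrogenase gene thus lay on the other side of 0 from most glycolytic genes measured. Summed over the 12 genes, the level was 4689 FPKM in wild type and 5625 in fdl1.

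Acetaldehyde, the product of pyruvate decarboxylase, can also be oxidised to acetate by aldehyde dehydrogenases. All 4 of their listed genes at 1 FPKM or more had ratios above 0, as 52.3% of all genes did. The mitochondrial enzymes rf2 (GRMZM2G058675), known as a restorer of male fertility, and rf2b (GRMZM2G125268) had 114 and 60.3 FPKM in wild type and 139.9 and 70.3 in fdl1. The cytosolic enzymes differed more, rf2c (GRMZM2G071021) with 24.5 FPKM in wild type and 50.4 in fdl1, a log2 ratio of 1.04, and rf2d (GRMZM2G097706) with 0.929 and 2.77, a log2 ratio of 1.57. Both of these cytosolic genes were higher by at least 2-fold, as 4.67% of all genes were. In wild type, adh1 was 1.73 times as abundant as rf2, and in fdl1 1.18 times. Pyruvate can instead be used inside mitochondria by pyruvate dehydrogenase. Its subunit gene pdh2 (GRMZM2G043198, PDHE1-B) had 108 FPKM in wild type and 117 in fdl1, a log2 ratio of 0.12, next to the values of pdc3.

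**Figure D4:**
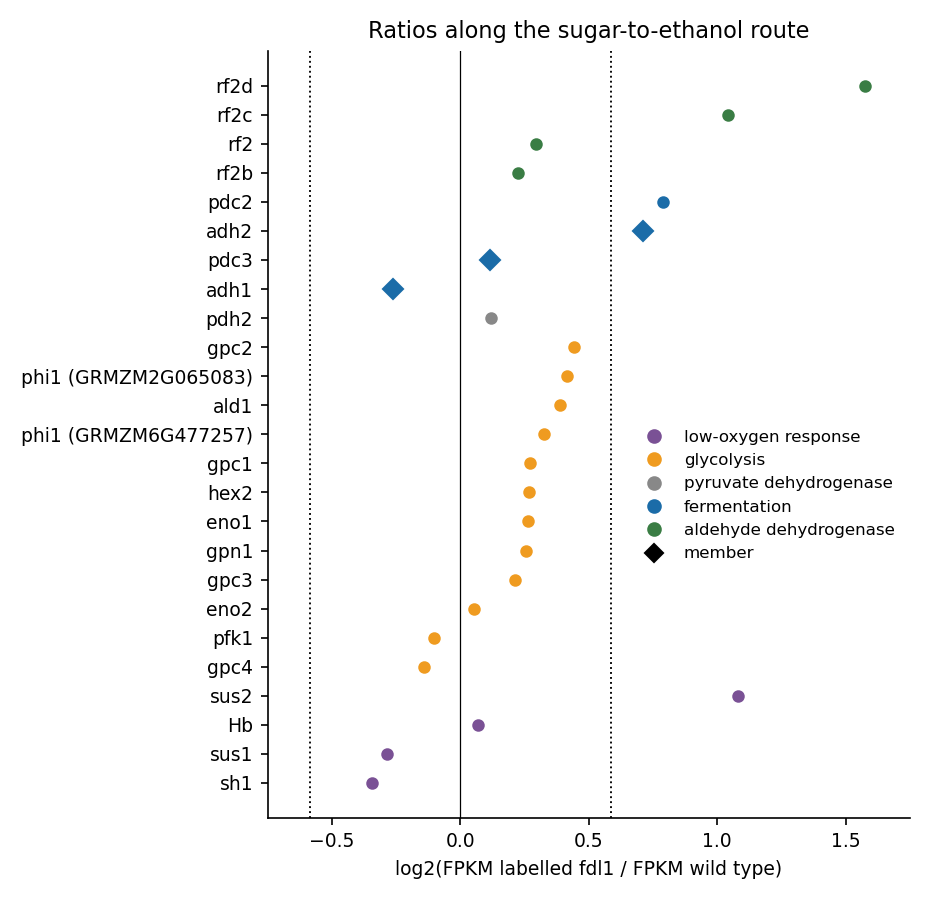
Log2 ratio of fdl1 to wild-type FPKM for the genes at 1 FPKM or more of the low-oxygen, glycolysis, pyruvate dehydrogenase, fermentation and aldehyde dehydrogenase lists, coloured by list, with the 3 genes described as diamonds and dotted lines at 1.5-fold. Points of glycolysis lie between -0.14 and 0.44, whereas adh2, pdc2, sus2, rf2c and rf2d lie beyond the upper dotted line and none of the plotted genes lies beyond the lower one.

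Of 8 symbols listed for the low-oxygen response, 4 were matched, the sucrose synthases and xet1, which was below 1 FPKM in both groups. The hemoglobin gene GRMZM2G067402 had 2.65 FPKM in wild type and 2.77 in fdl1, a log2 ratio of 0.07. This gene, unlike adh2, was within 1.5-fold. Since adh1 is also a seed gene, markers of seed tissue were read beside it. Of 9 genes for storage proteins and other endosperm or embryo products, 3 were listed at 0 in both groups and 4 were below 1 FPKM in both. The oleosin gene ole1 had 4.60 FPKM in wild type and 4.88 in fdl1, and mn1, an invertase of the endosperm, had 9.09 and 4.03. The summed level of the list was 14.8 FPKM in wild type and 9.89 in fdl1, a difference that rests on mn1. Without mn1, the other 8 genes summed to 5.67 FPKM in wild type and 5.87 in fdl1. The part of seed tissue in the adh1 difference was not tested. Of root genes, rth3 had 9.47 and 9.16 FPKM and rtcs1 0.390 and 0.677. Of the epidermal genes listed, the homeobox gene ocl1 had 31.3 and 29.8 FPKM and ad1 had 17.5 and 16.1. FDL1, also on that list, went the other way, with 4.58 and 12.7 FPKM. No genes that define the coleoptile itself were fixed, so that the tissue label was not checked further.

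The genes closest to each of the 3 in both pooled levels were named by their distance in log2 FPKM over the 2 groups. For adh1 these were GRMZM2G084739, with 196 FPKM in wild type and 163 in fdl1, and GRMZM2G102075, with 197 and 161. For adh2, GRMZM2G077531 had 13.5 and 22.0 FPKM, and AC155376.2_FG004 had 13.5 and 21.9. For pdc3, the closest was pdh2, at a distance of 0.0078 on the log2 scale, and the next was GRMZM2G086882, with 108 and 119 FPKM. With 2 values per gene, such closeness describes the levels only.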

How the data were processed

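RNA from coleoptile tips was sequenced in 3 wild-type and 3 fdl1 samples. Per the labels and the methods, the authors trimmed reads with Trimmomatic, mapped them to the B73v3 genome with TopHat2 2.1.1 and compared the groups with Cuffdiff. Parameters and the annotation file are not given in the sources used here. The plants were of the W22 background, so that reads of both groups were mapped to another inbred line. Whether the authors' FPKM assignment used strand, and how it divided reads between paralogs, is not given either.

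The authors deposited 1 table with 39283 genes and 1 FPKM value per gene and group, pooled by Cuffdiff over the replicates. Its columns of the authors' own comparison (log2 fold change, test statistic, p-value, q-value and a significance mark) were not used. The table's locus starts count from 0, and 1 was added to each. Steps of whole reads were looked for among low values (2245 wild-type values under 0.1 FPKM, at loci shorter than 3000 bases, multiplied by locus length). The fullest bin of these products held 7.53% of the values, and regular spacing between steps was not measured. Locus length can differ from transcript length and the values were pooled over replicates, so that steps could have been blurred. The check therefore cannot give the depth, which stays unknown, and counting errors could not be computed.

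Python 3.11.15 with numpy 2.4.6, pandas 2.3.3 and matplotlib 3.10.9 was used. Log2 ratios of the pooled FPKM values were computed without a pseudocount and placed among the 21364 genes above 0 in both groups and at 1 FPKM or more in at least one of them. A percentile is the share of these genes with a lower value. No test was made and no p-value is given, because each group has a single value. The code was tested on simulated data. Named genes are the members, genes of fixed lists matched by symbol to the synonyms of RefSeq's gene table for the assembly Zm-B73-REFERENCE-NAM-5.0 (used for names only, with a name for 70.0% of the genes placed), and the closest genes in level. Of 78 listed symbols, 38 were used. The others found no gene in the table or could not be matched without doubt. The identifier of FDL1 was taken from the paper. The hemoglobin gene was added after the table was seen. The members and lists were chosen with earlier results of these data known. Planned comparisons of promoter and protein sequences were not run, because sequences were not used here. Alternatives were pseudocounts of 0.1 and 1, scaling to the median gene or to one total, other filters on low values, and, added after seeing the data, a background of genes of like level.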

Additional observations from a re-analysis of the deposited data

How the results depend on the processing

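The log2 ratios of adh1, adh2 and pdc3 moved by less than 0.1 with pseudocounts of 0.1 or 1, and none changed sign. The same held for centring on the median gene and for rescaling to one total. These 2 settings shift every ratio alike, by 0.02 and 0.03 in log2. The pseudocounts are small beside the levels of the 3 genes, so that larger moves were not possible. The share of genes higher in fdl1 by at least 1.5-fold was 7.29% where at least 10 FPKM was required, in place of 11.7%. The share of genes lower by at least 1.5-fold was 10.1% without a filter and 2.82% at 10 FPKM or more, in place of 5.33%. By construction, these filters change which weak genes are counted. The percentile of adh2 in wild-type FPKM went from 55.9 to 66.4 without a filter and to 21.3 at 10 FPKM or more. Percentiles of the 3 ratios moved by less than 5 points. No paired analysis was possible because the table holds 1 pooled value per group, and for the same reason no replicate could be left out. Depth and the spread between replicates are unknown, and no test was made of the adh2 difference or of any other.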
